A study of Mus musculus with 8 samples.

Results

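The axoneme is the microtubule core that drives the beating of the sperm tail, and the genes described here encode its dynein arms, radial spokes, central apparatus, tektins and the factors that assemble the dyneins. They were chosen by name from a list of 46 symbols and not by a rule on their values, though earlier results of these data were known. Of these symbols, 44 had a row among the 23983 genes of the expression table. Dnah3 and Dnah12 are not analysed here. The row called Spag6 in the table is the gene now named Spag6l, since its values were whole numbers of fragments at the transcript length of Spag6l (2466 bases) and not at that of the present Spag6 (1651 bases).

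RNA was sequenced from testes of wild-type C57BL/6J mice aged d12, d16 or d24 and of adult mice, and each stage is represented by 1 library. The design text names whole testis and the extraction protocol a piece of testis as the source. The groups differed in age, and the number of animals behind each library is not given in the sources used here. The libraries were strand-specific and read from both ends. Expression is given in FPKM, the number of fragments scaled to transcript length and by a factor for each library. This factor did not follow depth alone. The adult library held more implied fragments on genes than that of d12 (12740000 and 9330000). Yet 1 fragment on a transcript of 1 kb stood for 0.112 FPKM in the adult and 0.0799 at d12. Without replicate libraries the spread between animals is unknown, and stages were compared without a test. Intervals in parentheses are exact 95% intervals from the number of fragments behind each value and cover counting error only.

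In motile cilia and flagella, outer doublet microtubules carry outer and inner rows of dynein motors that slide the doublets against each other. Radial spokes and the central apparatus regulate these motors, a ruler complex and the nexin-dynein regulatory complex set and hold their spacing, and tektins run along the doublets as filaments. Dyneins are put together in the cytoplasm by dedicated assembly factors before they are carried into the growing flagellum, which male germ cells begin to build as haploid spermatids. In sperm, some heavy chains and spoke proteins are replaced by relatives of those used in multiciliated epithelia.

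At this depth 3 fragments on a transcript of 1 kb correspond to 0.240 FPKM at d12 and d16, 0.137 at d24 and 0.336 in the adult. Across the 4 stages in order of age, the summed level of 6 round spermatid markers was 3.50, 14.0, 503 and 1464 FPKM, and that of 6 markers of pachytene spermatocytes, cells in meiosis, was 66.1, 864, 3666 and 4400. At d16 most of the round spermatid sum came from Acr (10.0) and Spaca1 (3.53), while Acrv1 and Catsper3 were at 0. Izumo1 went from 0.642 at d12 to 0.107 at d16. The 6 markers of elongating spermatids summed to 13.2, 4.45, 2363 and 26392 FPKM, so they were lower at d16 than at d12. Markers of Sertoli cells, the somatic nurse cells, summed to 181, 135, 83.0 and 63.0 FPKM. In bulk testis RNA, a lower or higher level may reflect the number of cells of a type, their RNA per cell or the RNA of other cells in the library. These cannot be told apart, for the markers or for the axoneme genes.

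The axoneme genes rose in both steps of the juvenile testis and changed little afterwards. From d12 to d16, 37 of 44 were at least 2-fold higher and 0 at least 2-fold lower, whereas 12.6% of the 13901 genes that averaged 1 FPKM or more rose and 3.67% fell by this measure. The change was counted on log2(FPKM + 0.1), and its median over the 44 genes was 3.18, equal to 9.03-fold, with a median of 0 over all genes. From d16 to d24, 40 rose and 0 fell (27.5% and 8.45% of all genes), with a median log2 change of 2.12, or 4.34-fold, and of 0.13 over all genes. From d24 to the adult 1 gene rose, Tekt5, and 0 fell (11.4% and 2.20% of all genes), and the median log2 change was 0.17. Across the whole span from d12 to the adult 42 rose and 0 fell (35.7% and 23.1% of all genes), with a median log2 change of 5.86 or 58.1-fold.

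**Figure D1:**
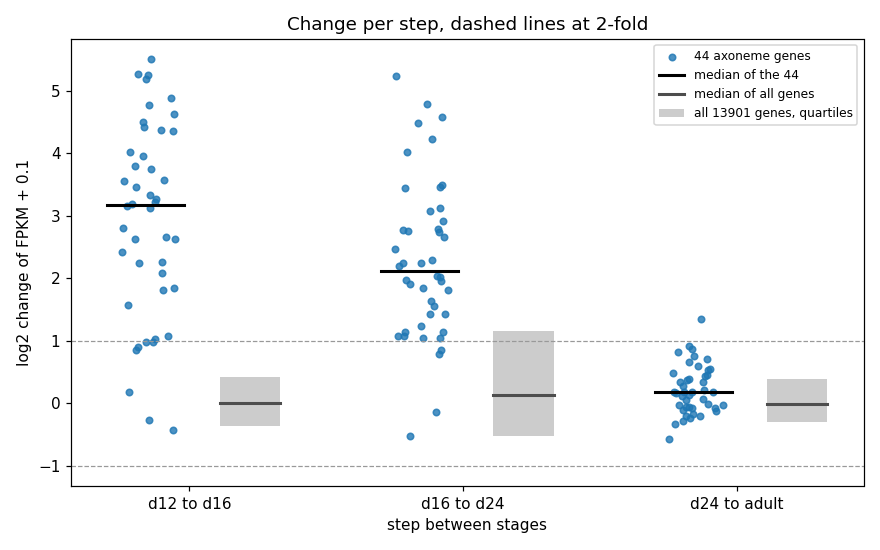
Change of the 44 axoneme genes between neighbouring stages, as the log2 change of FPKM + 0.1 (vertical axis) for each step (horizontal axis). Each point is 1 gene, black bars are their medians (3.18, 2.12 and 0.17), grey boxes span the quartiles of all 13901 genes and dashed lines mark 2-fold. Most points lie above the grey boxes from d12 to d16 and from d16 to d24, and they overlap the box from d24 to adult.

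Taken as 1 group, the 44 genes summed to 0.0655%, 0.536%, 1.34% and 1.05% of all FPKM values across the stages. The highest level fell in the adult for 27 genes, at d24 for 16, at d16 for 1, Rsph4a, and at d12 for 0. Of all genes, 36.33%, 18.01%, 10.39% and 35.26% were highest at these stages in the same order. The split between adult and d24 depended on scaling. As deposited 28 of the 44 genes were higher in the adult than at d24, and 11 were with the FPKM sums made equal. The d16 value of Rsph4a rests on 20 fragments, and its interval (0.268 to 0.677) overlaps those of the other stages. A level of 2 FPKM, the threshold for expression in the study's methods, was first reached at d12 by 16 genes, at d16 by 20 and at d24 by 4, which were the heavy chain gene Dnah10, the intermediate chain gene Dnaic2, the tektin gene Tekt2 and the assembly factor gene Dnaaf3. The remaining 4, Dnah5, Dnah9, Dnah11 and Rsph4a, stayed under 2 FPKM at every stage. These 4 also had a mean under 1 FPKM, and they stay in all counts of the 44 genes. Of the 13901 genes, 77.2% were at 2 FPKM or more at d12, compared with 36.4% of the axoneme genes. A first stage of d16 held for 6.10% of all genes and 45.5% of the axoneme genes. At d24 the shares were close, with 10.8% and 9.09%. Under 2 FPKM at every stage were 3.45% and 9.09%.

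The 44 genes lie on 16 autosomes, with 8 on chromosome 11 and 5 on chromosome 17. None lies on the X or Y chromosome, where 613 X-linked genes made up 4.43% of the expressed genes with a known position. RefSeq promoter windows of GRCm38.p6, from 250 bases before to 50 bases after the annotated start, were found for 39 of the 44 genes. The genes without a window were Armc4, Rsph1, Rsph4a, Lrrc6 and Dnaaf1. RFX transcription factors, known as regulators of ciliary genes, bind paired copies of a short core, and this core, GTTGCC, was searched on both strands, so that it reads GGCAAC where it lies on the strand opposite to the gene. It occurred in the windows of 16 of the 39 genes (41.0%), compared with 14.1% of 27025 genes with a window and 15.8% of the 11075 that were expressed. The full RFX palindrome, which can contain this core, occurred in 0 of the 39 windows and in 0.529% of all genes. The core TGACGT of the cAMP response element, the site bound by the germ cell factor CREM, occurred in 4 of the 39 windows (10.3%), with 8.37% of all and 12.6% of expressed genes. The median GC content was 54.7% in the 39 windows, 60% in those of expressed genes and 52.7% in all.

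Stretches of 80 bases are shown for the 11 genes whose window holds the RFX core upstream of the annotated start, which belong to 6 different roles. Each is written 5′ to 3′ on the strand of its gene, with GTTGCC or GGCAAC in capitals. Counting exact matches only, Spag16 and Tekt1 hold a pair of opposite cores close together, with GGCAAC before GTTGCC. This is the reverse of their order in the RFX palindrome. Cores with a mismatch were not searched, so further pairs were not assessed.

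Dnah7a, inner arm heavy chain, chr1:53706942-53707021, minus strand: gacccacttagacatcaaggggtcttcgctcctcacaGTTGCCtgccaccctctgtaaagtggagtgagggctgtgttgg
Dnah7b, inner arm heavy chain, chr1:46066653-46066732, plus strand: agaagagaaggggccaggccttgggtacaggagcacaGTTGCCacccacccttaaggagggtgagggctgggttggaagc
Dnah10, inner arm heavy chain, chr5:124725005-124725084, plus strand: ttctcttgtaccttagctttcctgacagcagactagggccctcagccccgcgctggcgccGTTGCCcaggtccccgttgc
Dnaic2, outer arm intermediate chain, chr11:114727339-114727418, plus strand: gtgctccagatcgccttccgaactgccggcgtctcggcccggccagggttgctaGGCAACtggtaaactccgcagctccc
Spag16, central apparatus, chr1:69826830-69826909, plus strand: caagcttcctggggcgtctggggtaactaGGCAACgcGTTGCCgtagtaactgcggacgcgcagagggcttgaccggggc
Hydin, central apparatus, chr8:110266897-110266976, plus strand: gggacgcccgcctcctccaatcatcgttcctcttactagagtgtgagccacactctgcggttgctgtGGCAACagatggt
Tekt1, tektin, chr11:72361883-72361962, minus strand: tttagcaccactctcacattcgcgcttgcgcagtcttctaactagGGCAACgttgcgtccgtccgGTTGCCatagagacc
Tekt2, tektin, chr4:126325689-126325768, minus strand: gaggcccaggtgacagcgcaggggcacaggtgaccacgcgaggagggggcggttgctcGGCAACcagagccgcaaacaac
Iqcg, nexin-dynein regulatory complex, chr16:33056187-33056266, minus strand: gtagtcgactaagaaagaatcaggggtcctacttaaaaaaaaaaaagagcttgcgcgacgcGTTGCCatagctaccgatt
Gas8, nexin-dynein regulatory complex, chr8:123518744-123518823, plus strand: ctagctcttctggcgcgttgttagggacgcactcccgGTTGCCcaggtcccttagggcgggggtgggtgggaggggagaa
Dnaaf2, dynein assembly, chr12:69198430-69198509, minus strand: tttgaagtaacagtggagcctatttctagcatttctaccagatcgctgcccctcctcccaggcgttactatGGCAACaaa

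A match of these letters is a description of the window and not evidence that a factor binds there. The genes printed differ in their course, since Dnah7b, Iqcg, Gas8 and Dnaaf2 were above 2 FPKM at d12 and Dnah10, Dnaic2 and Tekt2 reached this level at d24.

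Among the outer arm heavy chain genes, those known from the sperm flagellum rose strongly and those known from epithelial cilia stayed low. Dnah8 (chr17:30626935-30875762 of GRCm38), the heavy chain of sperm outer arms related to the ciliary Dnah5, had 4.22 FPKM at d12, rising to 88.4 at d16 and 317 at d24, and 276 FPKM in the adult. Its rise was 21.0-fold from d12 to d16 (19.5 to 22.6) and 3.59-fold from d16 to d24 (3.53 to 3.65), and the adult level was 0.871 of that at d24 (0.860 to 0.881). Dnah17 (chr11:118021723-118130719), the sperm relative of the ciliary Dnah9 and Dnah11, had 0.102 FPKM at d12 from 19 fragments, then 7.71, 53.3 and 45.0 FPKM. Dnah17 therefore started lower and rose more steeply than Dnah8, by 75.7-fold from d12 to d16 (48.3 to 126) and 6.92-fold from d16 to d24 (6.55 to 7.30). The ratio of Dnah8 to Dnah17 was 41.4 at d12 (26.3 to 69.1), 11.5 at d16 (10.9 to 12.1), 5.95 at d24 (5.86 to 6.05) and 6.14 (5.97 to 6.31) for the adult.

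The ciliary heavy chain genes had low levels at all stages. Dnah5 had 0.107, 0.0717, 0.210 and 0.481 FPKM across the stages, from 21, 14, 72 and 67 fragments. Dnah9 had 0.157, 0.192, 0.502 and 0.879 FPKM, and Dnah11 had 0.278, 0.182, 0.155 and 0.351 FPKM in the same order. Dnah9 rose 2.62-fold from d16 to d24 (1.79 to 3.94), and the d16 to d24 values of Dnah11 had a ratio of 0.853 whose interval includes 1 (0.535 to 1.38). Dnah5, Dnah9 and Dnah11 together made up 11.2%, 0.461%, 0.233% and 0.530% of the summed level of outer arm heavy chains across the stages. Dnah8 alone made up between 85.4% and 91.6% at every stage.

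The ratio of sperm to ciliary relatives widened between d12 and d24 in each pair. Dnah8 exceeded Dnah5 by 39.3 times at d12 (25.5 to 63.8), 1232 times at d16, 1513 times at d24 (1201 to 1933) and 574 times in the adult (452 to 741). The ratio of Dnah17 to Dnah9 was 0.651 at d12, with an interval that includes 1 (0.342 to 1.22), and 40.2, 106 and 51.2 at the later stages. Against Dnah11 it was 0.366 at d12 (0.204 to 0.634) and 42.4, 343 and 128 afterwards. At d12, therefore, Dnah17 was lower than Dnah11 and not distinguishable from Dnah9 at this depth. Rsph6a, the spoke head gene of sperm, gave 1 fragment at d12 (0.0502 FPKM) and had 5.62, 92.4 and 112 FPKM at the later stages. Its ciliary relative Rsph4a had 0.197, 0.438, 0.274 and 0.307 FPKM, from 9, 20, 22 and 10 fragments. The ratio of Rsph6a to Rsph4a was 0.255 at d12 (0.00581 to 1.84), then 12.8 (7.93 to 21.8), 337 (222 to 538) and 363 (197 to 759).

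**Figure D2:**
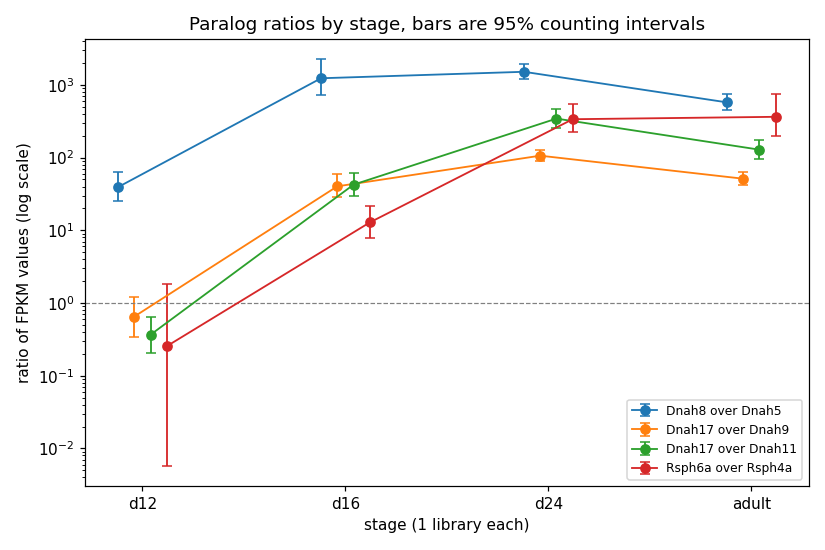
Ratio of FPKM between sperm and ciliary relatives (vertical axis, log scale) at each stage (horizontal axis), with bars for exact 95% counting intervals and a dashed line at 1. The 3 ratios that start below 1 at d12 lie between 12.8 and 42.4 at d16, and Dnah8 over Dnah5 starts at 39.3.

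Genes that mark multiciliated epithelium or epididymis, whose cells carry cilia or lie next to the testis, were low in these libraries. Of 6 markers of multiciliated cells 5 had a row, and they summed to 0.658, 1.35, 1.54 and 2.93 FPKM across the stages. Within this list Mcidas was at 0 at d12 and in the adult, and Gmnc at d12 and d16. Ccno (0.341, 0.469, 0.582 and 0.897 FPKM) and Cdc20b (0.102, 0.256, 0.671 and 1.94) were above 0 at every stage and rose with age. Foxn4 had 0.215, 0.593, 0.0460 and 0.0378 FPKM. The 6 epididymis markers summed to between 0.0230 and 2.22 FPKM, with Lcn8, Lcn9 and Spint4 at 0 in all 4 libraries. Rnase10, at 2.19 FPKM at d24 and 1.62 in the adult, made up most of this sum at these 2 stages. The ciliary heavy chains summed to 0.542, 0.445, 0.867 and 1.71 FPKM across the stages, and the part of such cells in these values was not tested.

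All 6 inner arm heavy chain genes rose from d12 to d16, with a median log2 change of 3.20. Dnah7b, 1 of the single-headed inner arm chains, had the highest level, with 11.4, 61.4, 105 and 111 FPKM. Dnah10, which forms part of the double-headed inner arm, had the lowest adult level, with 0.228, 1.29, 15.1 and 16.5 FPKM. Dnah10 was also the latest of this group, rising 5.68-fold from d12 to d16 (4.05 to 8.17) and 11.7-fold from d16 to d24 (10.2 to 13.4). Dnah2, its partner in that arm, had 0.886, 6.12, 30.4 and 24.7 FPKM and was above Dnah10 at every stage.

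Dnah6 had 13 fragments at d12 (0.0821 FPKM) and rose 49.1-fold to 4.03 FPKM at d16 (28.5 to 92.7), and had 28.6 and 26.9 FPKM afterwards. Dnah1, which is needed for the sperm tail in mice and men, had 0.254, 7.46, 30.5 and 20.4 FPKM. Its adult level was 0.668 of that at d24 (0.638 to 0.700), the lowest such ratio among the 44 genes. Dnah7a had 1.70, 23.98, 52.7 and 59.9 FPKM, and the ratio of Dnah7b to Dnah7a was 6.70, 2.56, 2.00 and 1.85 across the stages. Of the stretches of 50 bases, the read length, in the transcripts of Dnah7a and Dnah7b, 40.2% and 48.4% also occur in another gene, so these values and their ratios depend on how the authors' software placed shared reads. The inner arm chains analysed summed to 14.5 FPKM at d12 and 263 at d24, of which Dnah7b gave 11.4 and 105. Outer arm chains summed to 4.86 and 372, of which Dnah8 gave 4.22 and 317. The inner arm chains Dnah3 and Dnah12 are missing from the first sum, so the order of the 2 sums cannot be read.

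Intermediate and light chains differed in when they rose. Dnali1, a light chain of inner arms, was the highest of the 5 in the adult, with 0.957, 12.5, 141 and 160 FPKM across the stages. Dnaic1 and Dnaic2 both encode intermediate chains at the base of the outer arm. Dnaic1 had 2.08, 18.9, 86.8 and 85.7 FPKM and rose 9.08-fold from d12 to d16 (7.02 to 11.9) and 4.59-fold from d16 to d24 (4.21 to 5.01). Dnaic2 had 0.223, 1.42, 36.4 and 42.2 FPKM and rose 6.39-fold (3.01 to 15.6) and then 25.6-fold (19.4 to 34.4). The level at d16 was thus 21.8% of that at d24 for Dnaic1 and 3.91% for Dnaic2. The light chain genes Dnal1 and Dnal4, which were above 2 FPKM at d12, changed least of the 5. Dnal1 had 2.39, 4.54, 10.1 and 9.23 FPKM and Dnal4 had 6.00, 11.9, 28.0 and 35.6 FPKM, with ratios of d16 to d12 of 1.90 (1.58 to 2.30) and 1.98 (1.57 to 2.51).

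The 3 genes for docking and attachment of the dynein arms rose in both juvenile steps. Armc4, a part of the outer arm docking complex, had 0.184, 4.30, 24.1 and 31.1 FPKM. Ccdc103, which helps to attach dynein arms, had 0.311, 3.64, 9.96 and 15.0 FPKM. Ccdc114, also of the docking complex, had 1.17, 3.69, 14.1 and 15.9 FPKM. At d16 these 3 genes lay close together, between 3.64 and 4.30 FPKM, while Dnah8, the heavy chain of sperm outer arms, was at 88.4.

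The radial spoke genes held both the highest and the lowest adult level of the 44. Rsph1, a spoke head gene, had 53.9, 747, 2189 and 2137 FPKM across the stages. It was the highest of the 44 genes at every stage and exceeded Tekt1, the next in the adult, by 4.47 times (4.34 to 4.61). Rsph9, also of the spoke head, had 2.37, 15.1, 128 and 179 FPKM and reached 11.8% of its d24 level at d16, compared with 34.1% for Rsph1. Rsph3a, a gene of the spoke stalk, had 15.9, 76.9, 299 and 293 FPKM. Of the 50-base stretches of Rsph3a, 69.3% also occur in its near copy Rsph3b, listed at 18.5, 85.2, 341 and 347 FPKM, so the share of each is uncertain. Rsph6a, described with its relative Rsph4a, rose 112-fold from its 1 fragment at d12 to d16 (19.7 to 4471) and 16.5-fold from d16 to d24 (13.6 to 20).

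The 4 genes of the central apparatus had the largest median rise from d12 to d16, a log2 change of 4.51. Spag17, a central apparatus protein of large size, had 0.477, 26.2, 124 and 169 FPKM and rose 54.8-fold in this step (41.1 to 74.8), the largest change of the 44 genes on log2(FPKM + 0.1), with 5.51. The Spag6 row had 1.33, 35.4, 238 and 220 FPKM, the highest adult level of the group. Hydin, a large protein of a central pair projection, had the lowest, with 0.354, 4.90, 23.6 and 26.5 FPKM. Spag16 had 1.06, 24.1, 84.4 and 123 FPKM, so that in all 4 genes the level lay under 2 FPKM at d12 and between 14.9% and 28.5% of the d24 level at d16.

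The tektins had reached the smallest share of their d24 level at d16. Tekt1 (chr11:72344717-72362442) had 2.83, 47.5, 302 and 478 FPKM and was the second highest of the 44 genes in the adult. Tekt3 gave 2 fragments at d12 (0.0918 FPKM) and had 5.15, 145 and 196 FPKM at the later stages. Tekt4 gave 3 fragments at d12 (0.156 FPKM) and had 2.19, 86.2 and 145 FPKM. From d16 to d24 Tekt4 rose 39.3-fold (29.0 to 54.6), the largest rise of this step, and Tekt3 rose 28.1-fold (23.3 to 34.2). Tekt2, the lowest of the group in the adult, had 0.374, 1.61, 38.0 and 69.5 FPKM and rose 23.6-fold from d16 to d24 (16.5 to 34.4).

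Tekt5 (chr16:10357952-10395455) had 0.135 FPKM at d12 from 3 fragments, then 2.09, 40.9 and 104 FPKM. Its adult level was 2.54 times that at d24 (2.37 to 2.72), and for Tekt2, Tekt4, Tekt1 and Tekt3 this ratio was 1.83, 1.69, 1.58 and 1.35. The median log2 change of the 5 tektins was 4.48 from d16 to d24 and 0.75 from d24 to the adult, compared with 2.12 and 0.17 over the 44 genes. The level at d16 was a median of 4.23% of that at d24 for tektins, with a range of 2.54% to 15.7%, while the median was 23.0% for the 44 genes and 91.2% for all genes. With 1 library per stage and 5 genes, this is a description of these libraries.

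**Figure D3:**
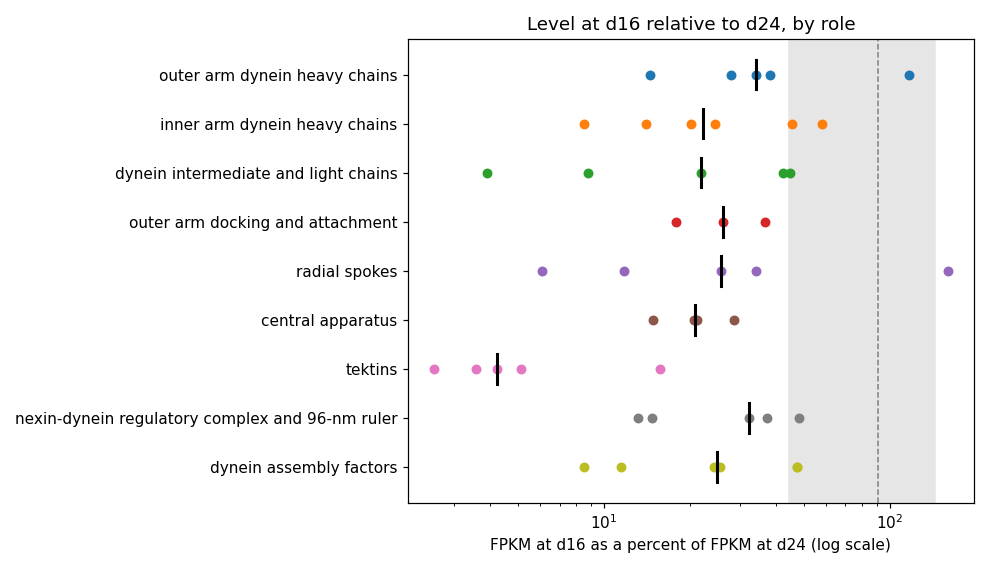
Level at d16 as a percent of the level at d24 (horizontal axis, log scale), with 1 point per gene, rows by role and a black bar at the median of each role. The grey band spans the quartiles of all genes and the dashed line their median (91.2%). The tektins lie furthest to the left, with a median of 4.23%.

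The 5 genes of the nexin-dynein regulatory complex and the ruler differed in how far they had risen at d16, as did the genes of other roles. Their level at d16 was a median of 32.1% of that at d24, with a range of 13.2% (Ccdc65) to 48.4% (Gas8). Gas8, a core subunit of the regulatory complex, had 29.8, 60.6, 125 and 181 FPKM across the stages and rose 2.03-fold from d12 to d16 (1.85 to 2.24) and 2.07-fold from d16 to d24 (1.94 to 2.20). Ccdc65, another subunit of that complex, had 1.23, 39.5, 300 and 393 FPKM. It rose 32.0-fold (17.2 to 73.0) and 7.60-fold (6.76 to 8.59) in these steps, so that Ccdc65 was below Gas8 at d12 and d16 and above it at d24 and in the adult. Iqcg had 8.37, 29.5, 79.3 and 75.05 FPKM. The partners Ccdc39 and Ccdc40, which together form the ruler that sets the spacing of dynein arms, differed in level. Ccdc39 had 14.0, 99.0, 308 and 272 FPKM, and Ccdc40 had 0.994, 10.9, 73.9 and 71.1, the lowest adult level of the group.

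All 6 assembly factor genes rose from d16 to d24 and 5 of them from d12 to d16. Their median level at d16 was 24.8% of that at d24, beside 21.5% for the other 38 genes. Zmynd10 had 0.957, 38.4, 158 and 126 FPKM and rose 40.1-fold from d12 to d16 (25.7 to 69.5), the largest rise among them in that step. Lrrc6, which encodes a binding partner of Zmynd10, had 3.75, 45.3, 178 and 225 FPKM and rose 12.1-fold (9.81 to 15.0). Both genes thus reached 24.2% and 25.4% of their d24 levels at d16. Dnaaf1 had 2.63, 26.4, 230 and 261 FPKM, the highest adult level among the factors. Dyx1c1, also known as Dnaaf4, had 5.05, 31.7, 66.6 and 57.6 FPKM.

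The remaining factors were lower. Dnaaf2, a co-chaperone also known as kintoun, had the highest d12 level of the 6 with 6.38 FPKM, and 13.6, 28.7 and 27.6 at the later stages. It rose 2.13-fold (1.84 to 2.47) and then 2.11-fold (1.93 to 2.32), and its rise from d12 to the adult, 4.32-fold (3.76 to 4.98), was the smallest of the 6. Dnaaf3 was the latest, with 0.693, 1.46, 17.2 and 17.7 FPKM, and rose 11.7-fold from d16 to d24 (8.55 to 16.4). Its level at d16 was 8.52% of that at d24, and those of the other 5 factors lay between 11.5% and 47.6%.

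**Figure D4:**
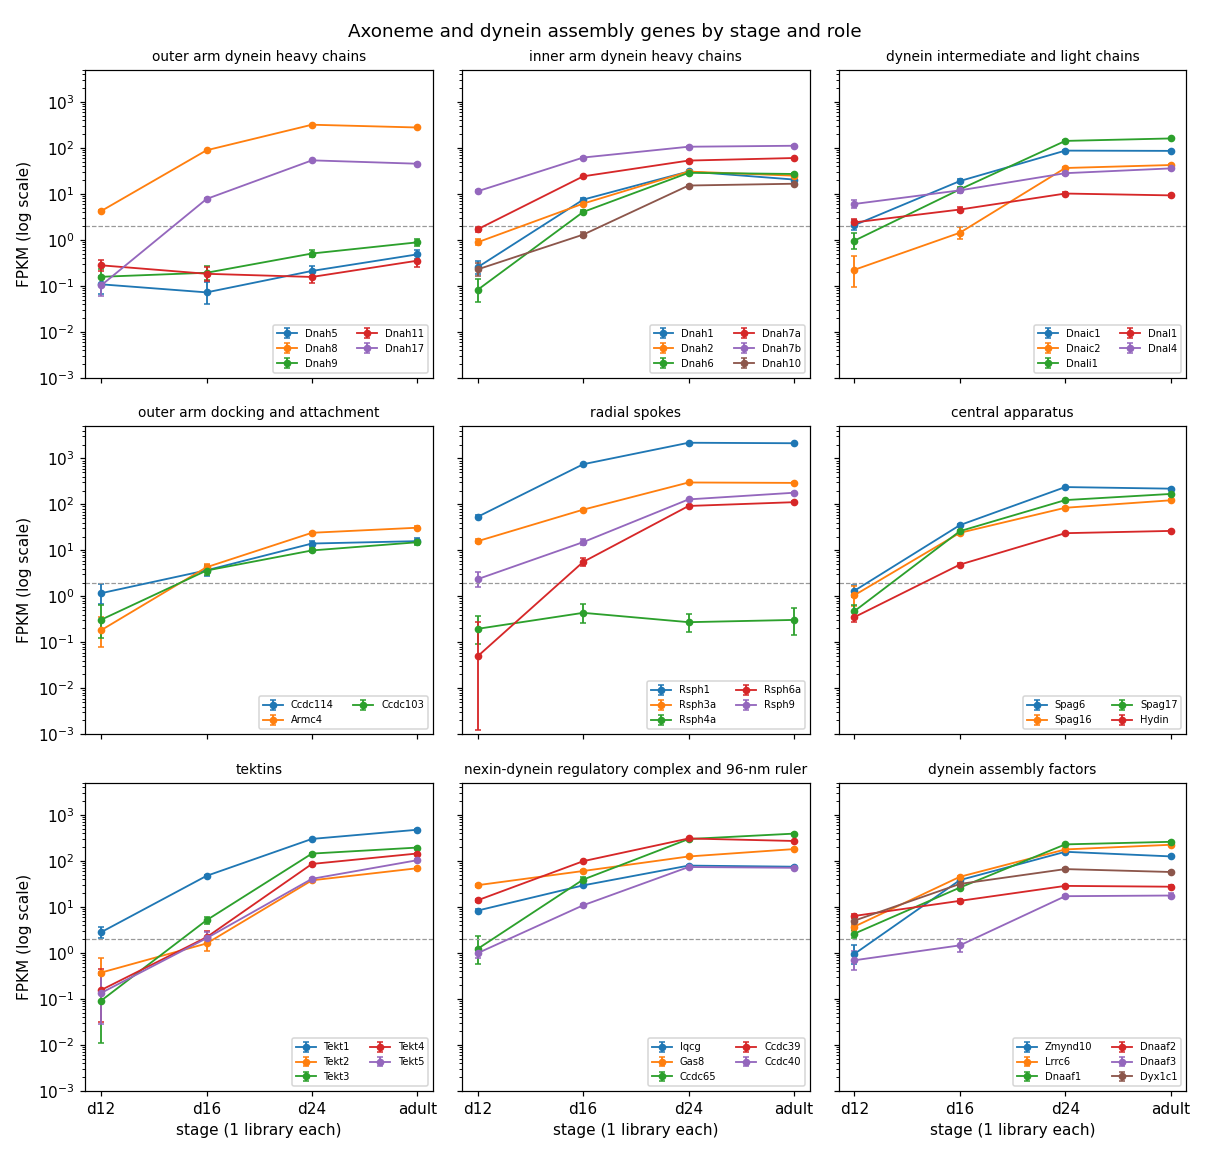
FPKM (vertical axis, log scale) of the 44 genes at each stage (horizontal axis) in 9 panels by role, with bars for exact 95% counting intervals and a dashed line at 2 FPKM. Most lines climb from d12 to d24 and level off, while Dnah5, Dnah9, Dnah11 and Rsph4a stay under the dashed line.

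The adult levels of neighbouring genes in order often could not be separated. Of 43 neighbouring pairs, 14 had a ratio whose interval includes 1, among them Dnah8 and Ccdc39 (276 and 272 FPKM) and Rsph6a and Dnah7b (112 and 111 FPKM). At the lower end Dnah9 (0.879 FPKM) was above Dnah5 (0.481), and the intervals of the ratios of Dnah5 to Dnah11 and of Dnah11 to Rsph4a include 1. Between Dnal1 at 9.23 FPKM and Dnah9 there was a gap of 10.5-fold (8.50 to 13.1). Across the 44 genes, longer transcripts had lower levels, with a Spearman rho of -0.270 at d12 and -0.489 in the adult. These genes share the same 4 libraries and FPKM is already divided by length.

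The smallest d12 values need care. A set of 38 genes that reached 500 FPKM or more in the adult, 4 times their d24 level or more, had a median of 0.0495% of the adult level at d12 and of 0.0203% at d16, and 28 of the 38 were higher at d12 than at d16. At d12 Rsph6a lay at 0.0449% and Tekt3 at 0.0469% of the adult level, within the range of that set (upper quartile 0.0663%). The other 42 axoneme genes lay above it, with a median of 1.46% over all 44. Whether RNA of older testes entered the d12 library was not tested.

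The step from d24 to the adult depended on how the libraries were put on 1 scale. As deposited, 25 axoneme genes had a ratio of adult to d24 with an interval above 1, 11 below 1 and 8 including it. Such counts are not given here for all genes under any scaling. They describe the axoneme genes only and cannot show whether the split is particular to them. The intervals cover counting error only, so a small change in a gene with many fragments can exclude 1, as for Rsph1 (0.976, 0.960 to 0.993). The deposited values sum to 472726 FPKM at d24 and 659202 in the adult, and with all sums made equal the counts were 6 above, 30 below and 8 including 1. Equal sums moved the median log2 change of all genes to -0.11, -0.48 and -0.49 in the 3 successive steps. With upper quartile scaling the counts were 16 above, 22 below and 6 including 1, and with median ratios 25, 10 and 9. Taken relative to the median of all genes, the axoneme genes were higher by 3.18 to 3.29 from d12 to d16, by 1.98 to 1.99 from d16 to d24 and by 0.192 to 0.196 from d24 to the adult under the 4 scalings. With equal sums 30 genes rose and 1 fell from d16 to d24, with 19.4% and 30.2% of all genes. In the last step 0 rose and 1 fell, with 6.63% and 10.0% of all genes. The genes that fell were Rsph4a and Dnah1.

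Other axoneme genes came from a list of 51 chosen by name, of which 45 had a row. From d12 to d16 38 rose and 0 fell (12.6% and 3.67% of all genes), from d16 to d24 43 rose and 0 fell (27.5% and 8.45%), and from d24 to the adult 2 rose and 0 fell (11.4% and 2.20%). The median log2 changes were 3.09, 2.54 and 0.31, beside 3.18, 2.12 and 0.17 for the 44 genes, and this difference was not tested. The highest adult levels were those of Meig1, needed for sperm tail formation (11.1, 150, 658 and 1018 FPKM), Mns1, a protein inside the doublets (88.6, 213, 736 and 845), and Cfap298, listed as 1110004E09Rik (39.8, 129, 422 and 496). The 2 that rose from d24 to the adult were Ccdc63 (0.219, 0.390, 42.2 and 122 FPKM) and Rsph14, listed as Rtdr1 (0, 0.876, 6.90 and 14.9), and they are named after their values were seen. At d16 the level was a median of 17.0% of that at d24 in this list, beside 23.0% for the 44 genes. Transcription factors of ciliary genes in the list differed in course. Rfx2 had 1.02, 12.8, 72.2 and 82.5 FPKM, Rfx3 had 3.01, 2.98, 3.36 and 6.39, and Foxj1 had 0.650, 0.279, 15.8 and 28.2. Rfx2 thus rose from d12 to d16, as did 37 of the 44 axoneme genes. The Foxj1 values at d12 and d16 rest on 21 and 9 fragments and differ 2.33-fold, and with 0.1 FPKM added the log2 change of -0.98 lay just short of 2-fold. Under each of the other 3 scalings it passed 2-fold.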

How the data were processed

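Testis RNA-seq libraries of 4 stages (d12, d16, d24, adult) were analysed, 1 for each stage. The authors deposited FPKM values per gene. Read pairs had been aligned by TopHat2 2.1.0, which uses Bowtie 1.1.2, to GRCm38/mm10, with an option that keeps 1 alignment per read. FPKM came from Cuffdiff of Cufflinks 2.2.1, run with options for reads matching several places and for sequence bias. Reads shared between genes had thus been placed at 1 site before the first of these options applied. The study's methods list no option for how Cuffdiff scaled the libraries. Median-ratio factors on the deposited values lay between 0.973 and 1.02, and equal-sum factors between 0.654 and 1.52. The deposited values were thus already close to the median-ratio scale. The 4 H3K27ac samples are not analysed here.

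From these values, ratios, medians and counts were computed in python 3.11.15 (scipy 1.17.1, pandas 2.3.3, numpy 2.4.6). A gene rose or fell when log2(FPKM + 0.1) changed by 1 or more, and shares of all genes are over the 13901 with a mean of at least 1 FPKM. No test was made, since no stage has replicates. Fragments were recovered from the FPKM values as multiples of the value of 1 fragment, with 91.2% to 92.2% of low values whole within 0.05. The 4 libraries held an implied 9330000, 9920000, 24980000 and 12740000 fragments on genes, in order of age. Fragments were whole for 25 genes and approximate for 12, and 7 with transcripts of several lengths were given their shortest length, which widens the interval. The 44 genes were matched to the RefSeq annotation of GRCm38.p6 for positions and promoters. In simulated data, 4 of 4 units were recovered on 15427 genes, and for d16 to d24, of 7527 genes, 200 of 200 with a 4-fold rise and 75 of 7327 unchanged ones were called. The simulation held counting error only and no spread between animals or libraries. These rates therefore check the computation and are not error rates of the real counts.

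Members, lists and comparisons were chosen with earlier results of these data known. Named with all values are the highest and lowest member of each role in adult testis, those with the largest change per step, those under 2 FPKM throughout, the pairs of relatives, all assembly factors, and of the other axoneme genes the 3 highest. Further members were named for completeness. Alternatives were 3 scalings (equal sums, upper quartile, median ratio), a pseudocount of 1 FPKM, folds of 1.5 and 4, thresholds of 1 and 5 FPKM, a background without filter, and ratios from fragments.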

Additional observations from a re-analysis of the deposited data

How the results depend on the processing

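The rises from d12 to d16 and from d16 to d24 kept their direction under the alternatives run, and the d24 to adult step did not. Over 96 results and 293 alternative values, 189 stayed within the set limits, 94 moved and 10 changed sign, all of these in the d24 to adult step. There the median log2 change of the 44 genes was -0.30 with equal sums and -0.0585 with upper quartile scaling. The same scalings gave -0.30 and -0.0621 for intermediate and light chains and -0.22 and -0.0549 for radial spokes. Equal sums gave -0.11 for docking and -0.17 for the central apparatus, and median ratios gave 0.0035 for inner arm chains and 0.0052 for assembly factors. With equal sums, the median of the 44 genes was 1.501 from d16 to d24 and 4.72 from d12 to adult. With upper quartile scaling these medians were 1.83 and 5.25. With equal sums 1 gene fell from d16 to d24 (30.2% of all genes). From d24 to adult 0 rose and 1 fell under this scaling (6.63% and 10.0% of all genes). With a pseudocount of 1 FPKM the medians were 2.24 from d12 to d16 and 4.73 from d12 to adult. At 4-fold, 24 genes rose from d16 to d24 and 0 from d24 to adult, and at 1.5-fold 8 rose in the last step. Shares of all genes at these folds are not given here, so these counts describe the 44 genes only. Of the other axoneme genes, 1 (Foxj1) fell from d12 to d16 under each of the 3 scalings, 1 (Heatr2) fell from d24 to adult and 1 (Ruvbl1) from d12 to adult with equal sums, and 1 rose from d24 to adult with equal sums or upper quartile. First reaching the threshold at d12 were 9 genes at 5 FPKM, and at d24 were 0 at 1 FPKM, 12 at 5 FPKM and 2 with equal sums. With equal sums the d16 level was a median of 35.3% of that at d24 over the 44 genes, 38.1% for assembly factors and 32.9% for the others. Scaling changes follow from the factors applied, and the cause of the unequal sums was not tested. No paired analysis was possible because each stage has 1 library. Under 20 fragments lie behind several d12 values, which limits folds from d12.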
